A study of Homo sapiens with 6 samples.

Results

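Of the 42307 genes in the deposited tables, 9 were examined here, chosen by name: the pentose phosphate enzymes PGD, TKT and TALDO1, and NQO1, HMOX1, GCLC, GCLM, SRXN1 and SLC7A11, which are targets of the transcription factor NRF2. All 9 were found, each with 1 row, and all 9 passed the filter on low counts. The measurements come from RNA sequencing of U251, an established human glioblastoma cell line labelled as wild type. The control group received a negative control plasmid and the other group one that overexpresses STING, which relays the sensing of DNA in the cytosol. Cells of both groups were transfected with 1 ug of plasmid per well and harvested on day 3, and each group had 3 libraries. The sources used here give neither the plasmid's promoter and backbone nor whether replicates were separate cultures, so p-values measure only the spread between these libraries, which may be technical. All libraries come from 1 cell line, and in bulk RNA fewer expressing cells cannot be told apart from less RNA per cell.

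The pentose phosphate pathway branches from glycolysis at glucose 6-phosphate. Its oxidative arm yields NADPH, the reductant for glutathione recycling and lipid synthesis, and its non-oxidative arm interconverts sugars to give ribose for nucleotides or to return carbon to glycolysis. NRF2, encoded by NFE2L2, is held low by KEAP1, which directs it to degradation. Oxidants and electrophiles release it, and with small MAF partners it binds antioxidant response elements of genes for glutathione synthesis, quinone reduction, heme breakdown and NADPH supply. Glioblastoma cells use these genes against oxidative stress, and STING is best known for inducing interferons and inflammatory genes.

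The 6 libraries held 71498790 to 76566375 counts, and 3 counts corresponded to 0.0392 to 0.042 CPM (counts scaled by TMM-adjusted library size), a floor for counting error only. STING1, the gene on the plasmid, was at 36.2, 37.1 and 31.2 CPM in control libraries 1, 2 and 3 and at 56.3, 54.7 and 47.3 CPM in STING libraries 1, 2 and 3. Its log2 fold change was 0.60 (SE 0.078, edgeR adjusted p = 0.0022). Of 21679 tested genes 131 were called higher and 193 lower, which is 1.49% in either direction and 0.89% lower. With scaling to total counts the split was 246 higher and 138 lower. Of 10 astrocyte and glioma markers 9 were in the tables and 7 had a mean of at least 1 CPM, with VIM, NES and CD44 abundant and S100B and OLIG2 at most 0.331 and 0.296 CPM in any library. Their summed level was 4082 to 4233 CPM in the controls and 3819 to 3965 CPM with the STING plasmid. VIM made up most of this sum, at 2745 to 2817 CPM in the controls and 2560 to 2660 CPM with the STING plasmid. In the same order NES was at 173 to 188 and 160 to 163 CPM, and SOX9 at 84.5 to 89.6 and 76.4 to 79.5 CPM. In VIM, NES, SOX9, GFAP and S100B every STING library lay below every control, while CD44, SOX2 and OLIG2 overlapped. Such a separation was found in 9.73% of all tested genes, and in 15.6% where mean CPM was 50 or above. GFAP was at 42.8, 34.9 and 39.5 CPM in control libraries 1, 2 and 3 and lower, at 21.3, 17.7 and 25.5 CPM, in STING libraries 1, 2 and 3. ALDH1L1, at 1.48 to 1.73 CPM in the controls, was slightly higher with the STING plasmid (1.74 to 1.86 CPM). Summed leukocyte, endothelial, epithelial and neuronal markers reached at most 38.1, 24.2, 55.3 and 55.2 CPM in any library, and the ranges of the 2 groups overlapped in these 4 lists. The part of any of these markers in the results below was not tested.

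In all 3 pentose phosphate enzymes and in NQO1 every STING library lay below every control, while the glutathione and heme genes and SRXN1 overlapped between the groups. TKT fell to 0.808 of its control level and was the only one of the 9 to pass the test. PGD, TALDO1 and NQO1 stood at 0.880, 0.887 and 0.908 of the control level without passing. HMOX1, GCLC, GCLM, SRXN1 and SLC7A11 stood between 0.984 and 1.04 of it. By edgeR (quasi-likelihood test, p adjusted by Benjamini-Hochberg over all tested genes) 0 of the 9 rose and 1 fell. The background is 0.89% called lower over all tested genes and 2.76% among the 4997 genes whose mean was 50 CPM or more, a level that all 9 exceeded. DESeq2 called 3 of the 9 lower (TKT, PGD and TALDO1, background 4.32%), and edgeR with a stricter filter on low counts called the same 3 (background 3.24%). These backgrounds are over all genes with an adjusted p, not only those with at least 50 CPM. In 4 of the 9, all lower, the unadjusted edgeR p was under 0.05, against 14.4% of all tested genes and 26.6% of those with at least 50 CPM in either direction. Those 4 are the genes without overlap between the groups, STING below control, against 9.73% of all tested genes and 15.6% of those with at least 50 CPM. The median log2 fold change of the 9 was −0.02, and that of all tested genes was 0.00. The members were picked with earlier results of these data known, so these counts are a description of the 9.

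TKT encodes transketolase, the thiamine-dependent enzyme that moves carbon units between sugar phosphates in the non-oxidative arm (ENSG00000163931, minus strand of chromosome 3, 53224712 to 53256052, in coordinates that match GRCh38). PGD encodes 6-phosphogluconate dehydrogenase, the NADPH-forming enzyme that ends the oxidative arm (ENSG00000142657, plus strand of chromosome 1, 10398592 to 10419808). The third gene shown here, GCLM, encodes the modifier subunit of glutamate-cysteine ligase (ENSG00000023909, minus strand of chromosome 1, 93885199 to 93909456). The 250 bases before their RefSeq start sites, in the direction of the gene on GRCh38.p14, are given because TKT is the gene that changed while PGD and GCLM are those whose promoters hold the core of an antioxidant response element. Capitals mark that core, TGACNNNGC, which was searched on both strands and can overlap an AP-1 site, TGANTCA.
TKT, chr3:53256023-53256272, minus strand: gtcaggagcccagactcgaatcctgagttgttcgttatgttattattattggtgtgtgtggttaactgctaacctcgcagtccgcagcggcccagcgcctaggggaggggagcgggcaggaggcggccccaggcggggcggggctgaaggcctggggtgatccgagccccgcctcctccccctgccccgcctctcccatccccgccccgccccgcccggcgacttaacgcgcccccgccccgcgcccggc
PGD, chr1:10398814-10399063, plus strand: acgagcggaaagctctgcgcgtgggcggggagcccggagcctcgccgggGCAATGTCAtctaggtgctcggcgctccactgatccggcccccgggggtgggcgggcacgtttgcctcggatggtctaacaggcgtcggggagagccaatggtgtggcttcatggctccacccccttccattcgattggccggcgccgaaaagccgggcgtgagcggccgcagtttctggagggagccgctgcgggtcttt
GCLM, chr1:93909431-93909680, minus strand: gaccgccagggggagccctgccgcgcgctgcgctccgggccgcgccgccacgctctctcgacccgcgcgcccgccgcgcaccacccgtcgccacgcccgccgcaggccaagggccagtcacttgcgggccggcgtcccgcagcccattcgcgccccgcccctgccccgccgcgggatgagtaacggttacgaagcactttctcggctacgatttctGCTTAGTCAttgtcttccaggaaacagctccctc
The match in PGD begins 201 bases before the start site and that in GCLM 34 bases before it, both on the opposite strand. They read TGACATTGC and TGACTAAGC in the direction of the motif. RefSeq promoters of 300 bases, from 250 before to 50 after the start site, were matched by symbol for 7 of the 9 genes (PGD, TKT, TALDO1, NQO1, GCLC, GCLM and SRXN1), and 2 of these 7 held the core, against 13.35% of 35116 promoters of that length. The AP-1 site was in 0 of the 7 (7.71% of all). The same holds for TGATGNAA, the element of C/EBP and ATF factors (3.62%), and a pair of GAAA repeats set 2 bases apart, part of the interferon-stimulated response element (3.57%). A match describes the letters only, and these windows do not cover distal elements. The 2 genes with a match differed in their values, with log2 fold changes of −0.18 for PGD and 0.05 for GCLM, neither past the test.

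TKT was the second most abundant of the 9 per length and had the largest change. It was at 874, 869 and 826 CPM in control libraries 1, 2 and 3, and at 742, 619 and 715 CPM in STING libraries 1, 2 and 3. All STING libraries lay below all controls, the lowest control being 11.3% above the highest STING library, and STING library 2 was the lowest. The group means were 856 ± 26.2 CPM in the controls and 692 ± 64.9 CPM in the STING libraries (SD, n = 3). This is a log2 fold change of −0.31 (SE 0.059), with an edgeR adjusted p of 0.0224. Permuting the CPM values over the libraries (exact, two-sided) gave p = 0.1, the lowest possible for 3 against 3. The call held without each STING library (edgeR adjusted p from 0.0302 to 0.048) but not without control library 1, 2 or 3 (0.112, 0.117 and 0.0577). It also missed the threshold after correction for GC content and length (log2 fold change −0.26, adjusted p = 0.0519). The related genes TKTL1 and TKTL2 were at 0.700 ± 0.0712 and 0.0141 ± 0.0245 CPM in the controls (SD, n = 3).

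PGD was at 265, 262 and 256 CPM in the control libraries and at 252, 208 and 229.8 CPM in the STING libraries. The groups did not overlap, but the lowest control lay only 1.74% above STING library 1. The log2 fold change was −0.18 (SE 0.059, edgeR adjusted p = 0.143). TALDO1, transaldolase, works beside transketolase in the non-oxidative arm (ENSG00000177156, plus strand of chromosome 11, 747415 to 765012). It was at 129.9, 137 and 129 CPM in the controls and at 124, 109 and 117 CPM with the STING plasmid. Again no STING library reached the controls, the lowest of which lay 3.29% above the highest STING library. Its log2 fold change was −0.17 (SE 0.053, edgeR adjusted p = 0.12).

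In PGD, TALDO1, TKT and NQO1 alike, STING library 1 was the highest and STING library 2 the lowest of the 3 STING libraries. HMOX1 and SRXN1 had this order too. Over the 9 genes STING library 1 was the highest of the 3 in 6 and STING library 2 the lowest in 7. In PGD, TALDO1, TKT and NQO1, STING library 2 stood at 72.2% to 84.1% of the control mean and STING library 1 at 86.7% to 97.0%. Without STING library 1 all 4 passed edgeR's test, against 2.12% of all tested genes called lower. The share among genes with at least 50 CPM was not computed for this fit. The edgeR adjusted p was 0.0142 for PGD, 0.0299 for TALDO1, 0.0302 for TKT and 0.0278 for NQO1. Leaving out STING library 2 gave log2 fold changes of −0.12, −0.13, −0.23 and −0.09 in the same order, and of these TKT alone passed (adjusted p = 0.0377).

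TKT also stood lower relative to its neighbours in the pathway in the STING libraries. The ratio of TKT to PGD, in FPKM and therefore per length, was 1.16, 1.16 and 1.13 in the controls and 1.03, 1.05 and 1.09 with the STING plasmid. The ratio of TKT to TALDO1 was 2.06, 1.95 and 1.97 in the controls and 1.83, 1.73 and 1.88 with the STING plasmid. Neither ratio overlapped between the groups, and each is independent of how the libraries are scaled. Each gave p = 0.1 in a two-sided exact permutation test, the smallest possible, and the pairs were chosen after the values were seen.

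**Figure D1:**
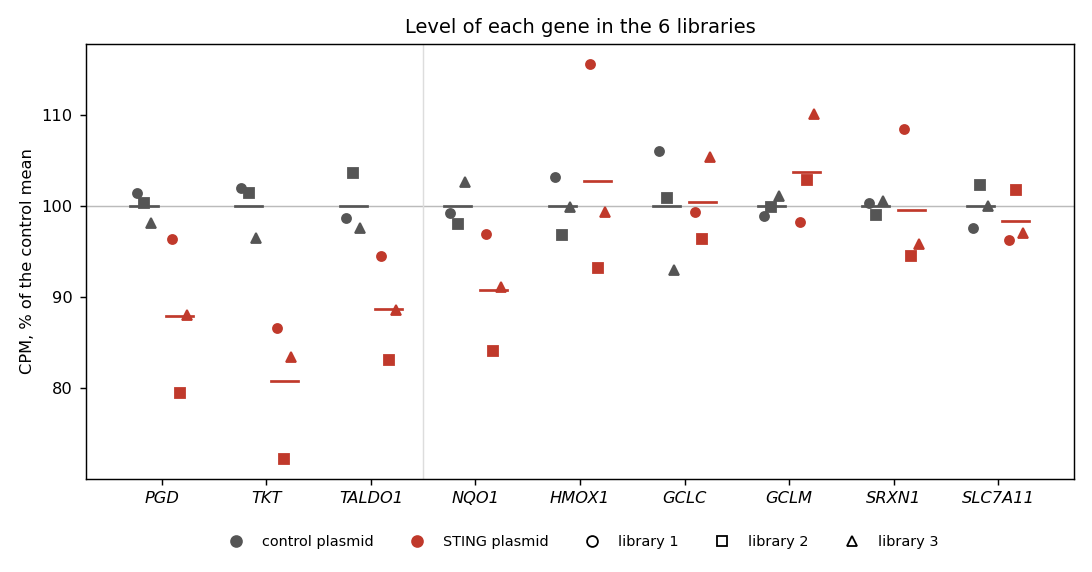
CPM of each of the 9 genes in each library as a percentage of the gene's mean over the control libraries (grey, control plasmid; red, STING plasmid; marker shape, library number; bars, group means). The 3 pentose phosphate enzymes stand left of the vertical line. In PGD, TKT, TALDO1 and NQO1 all STING libraries lie below all controls, while the other 5 genes overlap. STING library 2 is the lowest STING library in 7 of the 9.

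NQO1, the quinone reductase that is a classical readout of NRF2, was the most abundant of the 9 per length (ENSG00000181019, minus strand of chromosome 16, 69706996 to 69726668). It was at 638, 630.3 and 660.4 CPM in the controls and at 623, 541 and 586 CPM in the STING libraries. The lowest control lay 1.10% above the highest STING library, and the groups overlapped when CPM was scaled to total counts. The log2 fold change was −0.14 (SE 0.05, edgeR adjusted p = 0.189). Its paralog NQO2 was at 23.0 ± 1.54 and 21.4 ± 1.37 CPM (SD, n = 3).

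HMOX1, the inducible heme oxygenase that breaks heme down to biliverdin, iron and carbon monoxide, is another NRF2 target and is repressed by BACH1 (ENSG00000100292, plus strand of chromosome 22, 35380361 to 35390293). It was at 74.8, 70.3 and 72.4 CPM in the controls and at 83.9, 67.6 and 72.1 CPM with the STING plasmid. STING library 1 was the highest and STING library 2 the lowest of all 6. The log2 fold change was 0.04 (SE 0.069, edgeR adjusted p = 0.878), and an interval of 2 standard errors on either side spans 0.935 to 1.13 of the control level. The constitutive heme oxygenase HMOX2 was at 25.6 ± 0.749 and 28.7 ± 2.09 CPM (SD, n = 3), with a log2 fold change of 0.16 (edgeR adjusted p = 0.305). The ratio of NQO1 to HMOX1 in FPKM was 6.60, 6.94 and 7.06 in the controls and 5.75, 6.19 and 6.30 with the STING plasmid, without overlap (two-sided exact permutation p = 0.1, the smallest possible). This pair too was chosen after the values were seen.

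Glutathione synthesis needs cystine, imported by SLC7A11, and glutamate-cysteine ligase, formed by GCLC and GCLM. SLC7A11 (ENSG00000151012, minus strand of chromosome 4, 138164097 to 138242349) was at 184, 193 and 189 CPM in the controls and at 181, 192 and 183 CPM in the STING libraries. These values overlapped, and 2 standard errors around the log2 fold change of −0.02 (SE 0.045) span 0.925 to 1.05 of the control level (edgeR adjusted p = 0.894). GCLC, the catalytic subunit (ENSG00000001084, minus strand of chromosome 6, 53497341 to 53616970), was at 93.0, 88.5 and 81.6 CPM in the controls and at 87.1, 84.6 and 92.5 CPM with the STING plasmid. Its range in the controls held the values of all STING libraries, and its log2 fold change was 0.01 (SE 0.056, edgeR adjusted p = 0.981). GCLM was at 137, 138 and 139 CPM in the controls and at 136, 142 and 152 CPM with the STING plasmid. Here the controls were tight and STING libraries lay on both sides of them, and the log2 fold change was 0.05 (SE 0.049, edgeR adjusted p = 0.71). The modifier subunit was 2.51 ± 0.195 times as abundant as the catalytic one per length in the controls and 2.58 ± 0.0984 times with the STING plasmid (FPKM ratio, SD, n = 3, two-sided exact permutation p = 0.7).

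SRXN1, sulfiredoxin, reduces over-oxidised peroxiredoxins (ENSG00000271303, minus strand of chromosome 20, 646615 to 653200). It was at 102, 101 and 102 CPM in the controls and at 110.3, 96.1 and 97.5 CPM in the STING libraries. STING library 1 lay above the controls and the other STING libraries below them. The log2 fold change was −0.01 (SE 0.055, edgeR adjusted p = 0.984), and 2 standard errors span 0.924 to 1.07 of the control level.

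**Figure D2:**
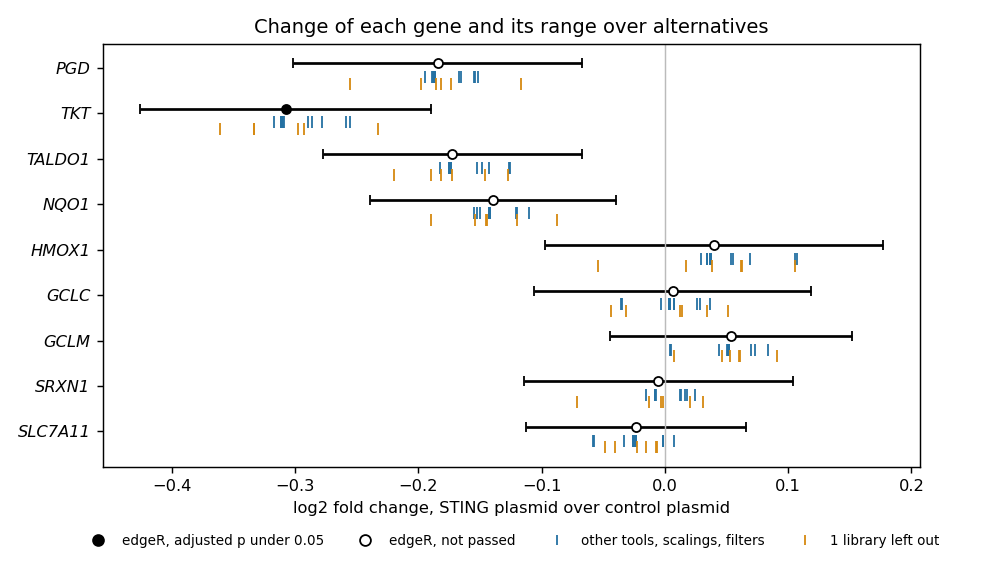
Log2 fold change of each gene, STING plasmid over control plasmid, with bars of 2 standard errors (black; filled where edgeR's adjusted p was under 0.05), and the estimates under other tools, scalings, filters and corrections (blue) and with 1 library left out (orange). PGD, TKT, TALDO1 and NQO1 stay left of 0 under every alternative drawn, and only TKT is filled.

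Gene models that overlap these genes took few reads. SLC7A11-AS1, on the opposite strand, was at 2.29 ± 0.375 and 1.97 ± 0.822 CPM (SD, n = 3), or 1.14% of the level of SLC7A11. The model AL121758 shares 2292 of the 2698 exon bases of SRXN1 on the same strand but held 24 counts over all 6 libraries. The opposite-strand model AC092115 within NQO1 held 2 counts. Over GCLC lie LINC01564 with 27 counts and 2 models named AL033397 with 51 and 121 counts. No other model overlaps PGD, TKT, TALDO1, HMOX1 or GCLM in the tables.

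Per length, the order in the controls was NQO1, TKT, PGD, TALDO1, SRXN1, HMOX1, GCLM, SLC7A11 and GCLC, and mean deposited FPKM ran from 198 ± 4.77 for NQO1 to 9.33 ± 0.705 for GCLC (SD, n = 3), a 21.3-fold span. All neighbours in this order were separated without overlap in the controls. With the STING plasmid TKT (67.7 ± 5.60 FPKM) and PGD (64.1 ± 5.43 FPKM) overlapped, although TKT was above PGD within each library. TALDO1 (37.4 ± 1.97 FPKM) and SRXN1 (37.3 ± 2.51 FPKM) overlapped too, and TALDO1 was the higher in 1 of the 3 STING libraries. The other neighbours remained apart. In abundance over all libraries NQO1 stood at the 99.5th percentile of the tested genes and GCLC, the lowest of the 9, at the 78.2th.

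**Figure D3:**
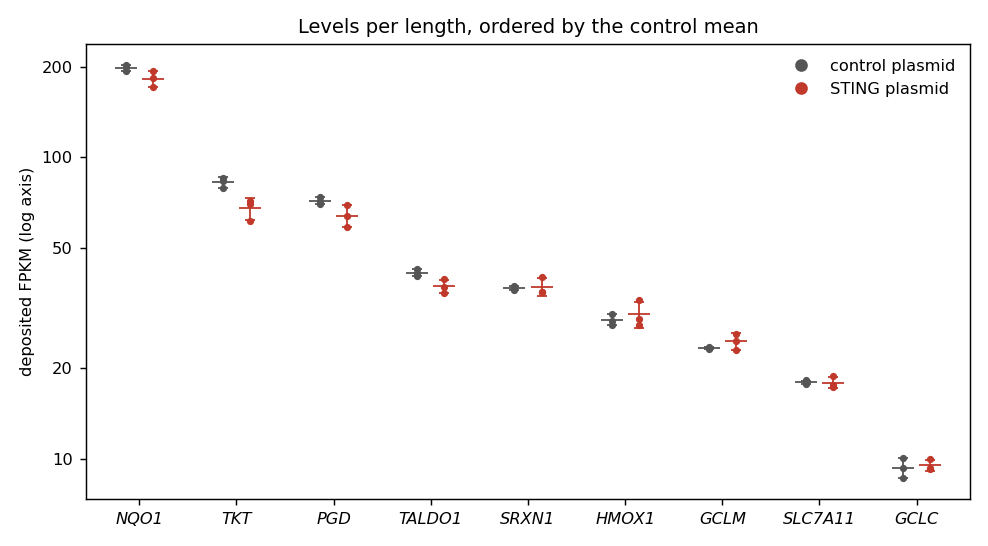
Deposited FPKM of the 9 genes on a log axis, ordered by the control mean (grey, control plasmid; red, STING plasmid; points, libraries; bars, mean and SD of 3 libraries). NQO1 leads at 198 FPKM in the controls, GCLC is lowest at 9.33, and TKT and PGD overlap with the STING plasmid only.

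Among the pentose phosphate genes outside the 9, 11 were tested, of which 0 rose, 1 fell and 10 did not pass, with a median log2 fold change of −0.04. For comparison, 0.89% of all tested genes and 2.76% of those with at least 50 CPM were called lower. H6PD, the enzyme of the oxidative arm in the endoplasmic reticulum, was at 48.0, 50.1 and 47.8 CPM in the controls and at 46.2, 38.7 and 40.6 CPM with the STING plasmid (log2 fold change −0.22, edgeR adjusted p = 0.119). PGLS, the lactonase between the dehydrogenases of the oxidative arm, was at 29.2 ± 2.12 and 25.4 ± 2.10 CPM (SD, n = 3; log2 fold change −0.20, edgeR adjusted p = 0.235). Both lay below the controls in all STING libraries, although PGLS overlapped between the groups when CPM was scaled to total counts. PRPS1, which turns ribose phosphate into the precursor of nucleotides, had a log2 fold change of 0.05 (edgeR adjusted p = 0.732), and the isomerases RPE and RPIA had changes of 0.01 and −0.04. In the term for the pentose phosphate pathway of the deposited annotation, considered after the values were seen, 25 genes were tested, with 0 higher, 2 lower and a median log2 fold change of −0.14. TKT itself is 1 of these 2, so this count partly repeats its result. That term holds PGD, TKT and TALDO1 and also enzymes of glycolysis, and in 11 of its 25 genes the STING libraries lay below all controls, against 9.73% of all tested genes and 15.6% of those with at least 50 CPM.

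Of NRF2 and its regulators 13 were tested, and 0 rose and 0 fell by edgeR, with 2 at an unadjusted p under 0.05. Such a p was reached by 14.4% of all tested genes and 26.6% of those with at least 50 CPM. NFE2L2 was at 110 ± 2.54 and 108 ± 3.02 CPM (SD, n = 3; log2 fold change −0.04, edgeR adjusted p = 0.822). KEAP1 was at 107 ± 2.34 and 101 ± 7.44 CPM (log2 fold change −0.09, edgeR adjusted p = 0.524), and BACH1 at 29.4 ± 0.52 and 31.3 ± 1.93 CPM (log2 fold change 0.09, edgeR adjusted p = 0.619). The smallest p values were those of BTRC, a ubiquitin ligase subunit that also targets NRF2 (log2 fold change 0.20, edgeR adjusted p = 0.12), SQSTM1, the autophagy receptor that binds KEAP1 (−0.12, 0.282), and MAFG, an NRF2 partner (0.10, 0.362). The related factor NFE2L1 had a log2 fold change of −0.06 (edgeR adjusted p = 0.667). The list median was −0.03.

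Of 33 other tested NRF2 targets 0 rose, 3 fell and 30 did not pass, with 27 negative estimates and a median of −0.10 on the log2 scale. Over all tested genes 0.89% were called lower (2.76% at 50 CPM or more), and 10794 of 21679 estimates were negative. EPHX1, microsomal epoxide hydrolase on chromosome 1 (225810092 to 225845559), was lower, at 138 ± 5.80 and 111 ± 7.94 CPM (SD, n = 3 libraries, edgeR adjusted p = 0.00996). ABCC1, an exporter of glutathione conjugates on chromosome 16 (15949577 to 16143074), was lower too, at 145 ± 2.72 and 124 ± 7.29 CPM (edgeR adjusted p = 0.0364). The ferritin heavy chain FTH1 went from 4803 ± 54.5 to 4054 ± 207 CPM (edgeR adjusted p = 0.0103), and the light chain FTL had a log2 fold change of −0.22 (edgeR adjusted p = 0.0677). Both ferritin genes have many processed pseudogenes, so their counts are uncertain. TXNRD1, thioredoxin reductase and a strong NRF2 target, stood at 626 and 617 CPM with a log2 fold change of −0.02 (edgeR adjusted p = 0.903). The STING libraries lay below all controls in 10 of the 33 genes and above them in 0, against 9.73% and 10.1% of all tested genes (15.6% below among those at 50 CPM or more).

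Of 32 tested genes of glutathione synthesis and use 0 rose and 1 fell, and the list median was −0.04. The share called lower was 0.89% over all tested genes and 2.76% over those with at least 50 CPM. The fallen gene was GPX4, the peroxidase that removes lipid hydroperoxides, at 141 ± 2.98 CPM in the controls against 122 ± 6.05 CPM (SD, n = 3 libraries, edgeR adjusted p = 0.0424). SLC3A2, the partner chain of SLC7A11 in the cystine transporter, was at 1091 ± 6.21 and 1161 ± 107 CPM (log2 fold change 0.09, edgeR adjusted p = 0.511), and GPX1 had a log2 fold change of −0.09. CHAC1, which degrades glutathione, had a change of 0.26 (edgeR adjusted p = 0.17), and GGT1, at 1.48 ± 0.582 and 0.592 ± 0.222 CPM, one of −1.32 (edgeR adjusted p = 0.0939). Of 9 peroxiredoxins, superoxide dismutases and catalase 0 changed by edgeR and 1 had an unadjusted p under 0.05, with a median of −0.06. Such a p was reached by 14.4% of all tested genes and 26.6% of those with at least 50 CPM. PRDX1 was at 722 ± 4.11 and 667 ± 28.2 CPM (edgeR adjusted p = 0.21). The log2 fold changes of SOD2, PRDX2 and PRDX5 were −0.37, −0.09 and −0.06. That of SOD2 had a wide error (SE 0.167, edgeR adjusted p = 0.444), and its groups overlapped. A mixed list of 7 held paralogs of the 9, heme-breakdown genes and sestrins. Of these 0 changed by edgeR and 2, the sestrin SESN3 and the paralog HMOX2, had an unadjusted p under 0.05, with a median of 0.06. The list also gave the sestrins SESN3 (log2 fold change −0.20) and SESN2 (0.14) and the heme-breakdown genes BLVRA (0.07) and BLVRB (−0.08).

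SLC7A11 is also a target of ATF4, the transcription factor of the integrated stress response, so that pathway was listed too. Of its 14 tested genes 0 rose and 0 fell by edgeR, 7 had an unadjusted p under 0.05, and the median log2 fold change was 0.10. Such a p was reached by 14.4% of all tested genes and 26.6% of those with at least 50 CPM. In 7 of the 14 the STING libraries lay above all controls, against 10.1% of all tested genes. Among genes with at least 50 CPM, 743 of 4997 did so. Of all tested genes 0.604% were called higher. DDIT3 was at 74.4 ± 2.24 and 84.5 ± 3.54 CPM (SD, n = 3; log2 fold change 0.18, edgeR adjusted p = 0.0845), ATF3 at 37.0 ± 1.93 and 43.4 ± 1.93 CPM (0.23, adjusted p = 0.0762) and PPP1R15A at 215 ± 7.69 and 248 ± 22.7 CPM (0.21, adjusted p = 0.107). ATF4 itself had a log2 fold change of 0.06 (edgeR adjusted p = 0.641).

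**Figure D4:**
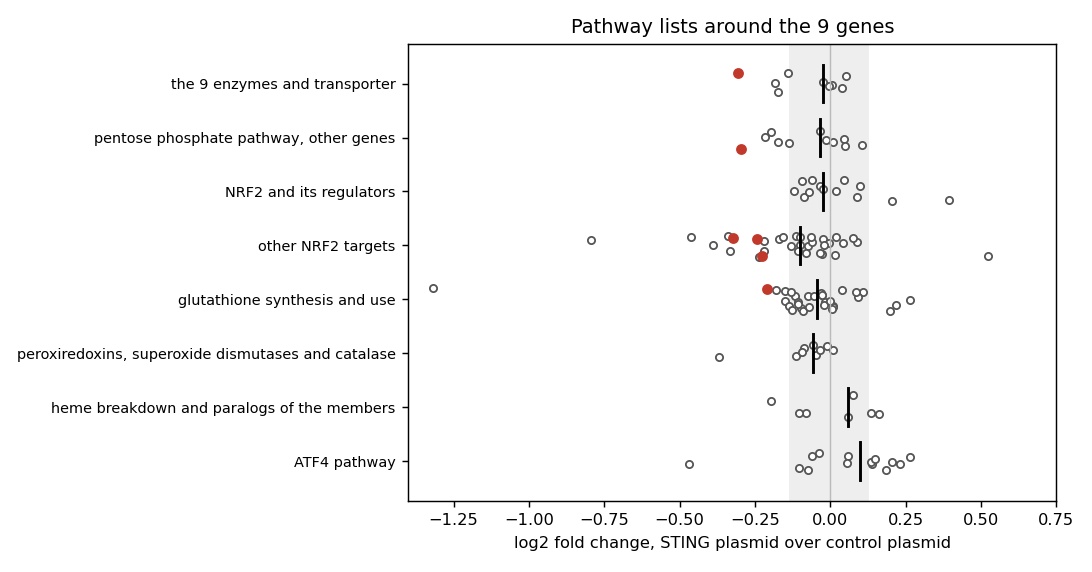
Log2 fold changes of the 9 genes and of the tested genes of each pathway list (points; filled red where edgeR's adjusted p was under 0.05; black bars, medians; shaded, the middle range of all tested genes from the 25th to the 75th percentile, −0.13 to 0.13). Called genes lie below 0 in every list that has any, and the ATF4 list has the highest median, 0.10. The list labelled heme breakdown and paralogs also holds sestrins, which are neither. Points are spread vertically for display only.

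Base composition differed between libraries, with STING libraries 2 and 3 apart from the controls and STING library 1 within their range. Among genes with at least 1 CPM, the slope of log2 CPM per 10% of GC content was 0.0149, 0.0469 and 0.0197 in control libraries 1, 2 and 3 and 0.0338, −0.0728 and −0.0425 in STING libraries 1, 2 and 3. The order of the STING libraries in PGD, TKT, TALDO1, NQO1, HMOX1 and SRXN1 is that of these slopes. Transcripts of TKT, TALDO1 and PGD have a GC content of 57.7%, 55.3% and 53.8%, against a median of 48.6% for all 14894 such genes and 56.7% for those called lower. HMOX1 has 60.2%, SRXN1 53.6% and NQO1 47.1%. The median log2 fold change of genes with a GC content of 56% to 59% was −0.06, against −0.31 for TKT. After correction for GC content and length the log2 fold changes were −0.26 for TKT, −0.15 for PGD, −0.13 for TALDO1 and −0.15 for NQO1. Those of HMOX1 and SRXN1 were 0.11 and 0.02 after it. Base composition as a cause of these changes was not tested.

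**Figure D5:**
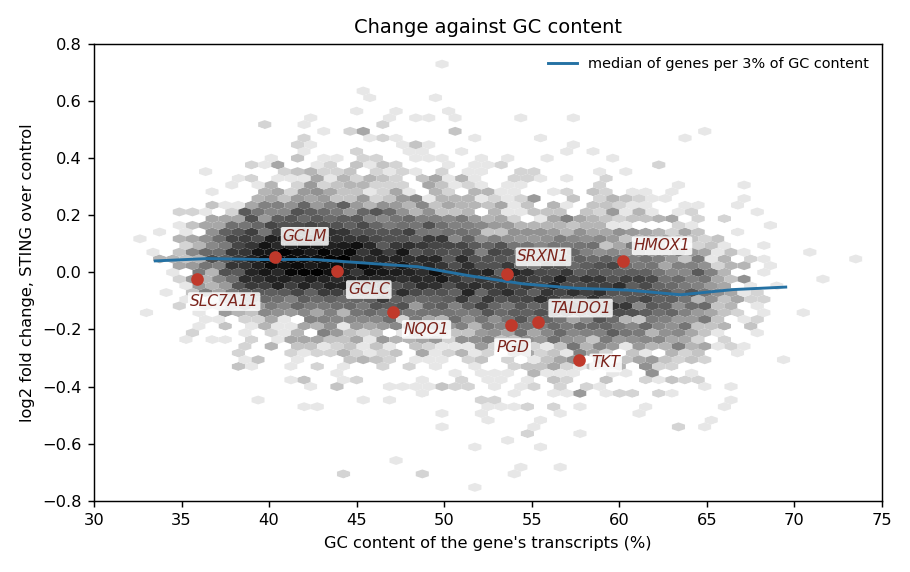
Log2 fold change against the GC content of the gene's transcripts for genes with a mean of at least 1 CPM (grey, darker where more genes fall; blue line, median per 3% of GC content), with the 9 genes in red. TKT lies at −0.31, below the median of −0.06 at its GC content, and HMOX1, the gene with the highest GC content of the 9, lies above the line.

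The gene whose profile over the 6 libraries was most like that of TKT was EPHX1, with a root mean square difference of 0.0274 in log2 CPM centred on each gene's mean, followed by DDR1, a collagen receptor kinase, with 0.0286. The comparison took in 10161 genes with a mean of at least 10 CPM, whose median difference from TKT was 0.191. DDR1 went from a control mean of 107 ± 3.28 to 84.6 ± 7.27 CPM (SD of 3 libraries, edgeR adjusted p = 0.00996). Because DDR1 was picked for its likeness to TKT, which was called lower, its fall follows from that choice and is no separate result. Among the 9 genes the closest profiles were those of PGD and TALDO1 (0.0376), followed by HMOX1 and SRXN1 (0.0445) and PGD and NQO1 (0.0458). These values describe likeness over 6 libraries that share the plasmid contrast.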

How the data were processed

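RNA of U251 cells was sequenced from 3 control-plasmid and 3 STING-plasmid libraries. Per the labels' protocols Trizol was used for extraction and a TruSeq RNA kit for the libraries. Bowtie 0.12.2 is listed in the submitters' processing notes. The sources used here do not give the counting program, annotation, build and strand setting. Per the file headers, the deposited tables hold read counts and FPKM values per Ensembl gene, 1 table per library. The counts are whole numbers, and the deposited FPKM were proportional to them with 1 length per gene (median ratio of the highest to the lowest implied length 1.001). Of the 42307 identifiers 40903 were found in GENCODE v29, with the start or end of 89.7% within 1 base, and coordinates are therefore labelled GRCh38. GC content was taken from GENCODE v29 transcripts.

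The main test was edgeR 4.0.16 on the counts, in R 4.3.3 (filterByExpr, TMM, robust quasi-likelihood fit without covariates, two-sided, Benjamini-Hochberg over all tested genes, threshold 0.05). Approximate standard errors were obtained by dividing the absolute log2 fold change by the square root of F. The chi-square per gene between libraries of a group was 11.9 to 23.5, so none was merely another library sequenced again. This check cannot tell separate cultures from separate preparations of the same RNA. The procedure was tested on simulated data. The alternatives tried were scaling by RLE, by total counts and by the upper quartile, no and a stricter filter (1 CPM in every library of a group), DESeq2 1.42.0, limma-voom (limma 3.58.1), limma on log2(FPKM + 0.1) and log2(FPKM + 1), the replicate number as a block, a spline correction for GC content and length, and each library left out.

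The members, the 7 pathway lists (116 gene names, some in 2 lists) and the tests were chosen with earlier results of these data known. The named genes were the 9 members, STING1, list members past the threshold, the 3 with the smallest p and the 2 with the highest FPKM of each list, KEAP1, NFE2L2, BACH1, 4 paralogs, overlapping models, and the 3 profiles most like TKT. RPE, RPIA and TXNRD1 and, in the closing section, LPCAT3 and STEAP3 were named after their values were seen. For 1 more gene named by the rule, values are not reported here.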

Additional observations from a re-analysis of the deposited data

How the results depend on the processing

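TKT, PGD, TALDO1 and NQO1 kept a negative log2 fold change under all 18 alternatives, between −0.36 and −0.23 for TKT, −0.26 and −0.12 for PGD, −0.22 and −0.13 for TALDO1 and −0.19 and −0.09 for NQO1. TKT passed the threshold under 11 of the 18, and the number of the 9 past it was 1 in the main test. It was 3 with DESeq2 (adjusted p of 9.44e-06 for TKT, 0.0285 for PGD and 0.0294 for TALDO1, against 4.32% of genes called lower) and 3 with the stricter filter (0.0428 for PGD and 0.0443 for TALDO1, against 3.24%). It was 0 after GC content and length were corrected for (edgeR, 4 at an unadjusted p under 0.05) and 0 with limma on log2(FPKM + 0.1) or log2(FPKM + 1) (3 each at an unadjusted p under 0.05, adjusted p of TKT 0.170 and 0.184). With 1 library left out it ranged from 0 to 4. The number of changed genes overall was 794 with the stricter filter, 1001 with DESeq2, 137 with limma-voom, 9 (8 higher and 1 lower) and 5 (all higher) with limma on FPKM, and 60 to 741 with 1 library left out. Of the 111 tested genes of the lists 5 changed in the main test, 12 with the stricter filter (of 103 tested), 14 with DESeq2, 2 with limma-voom, and 0 to 10 with 1 library left out. The changed genes of the lists were all lower in the main test, and 2 were higher and 3 lower with scaling to total counts. The causes were not tested.

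HMOX1, GCLC, SRXN1 and SLC7A11 changed sign around 0 under some alternatives, and GCLM stayed positive under all 18. SRXN1 was at 0.0245 with scaling to total counts, 0.0178 with the GC correction, 0.0129 and 0.0126 with limma on FPKM, and 0.0311 and 0.0203 without STING library 2 or 3, within a range of −0.0714 to 0.0311 with 1 library left out. SLC7A11 was at 0.00754 with scaling to total counts. GCLC was at −0.00341 with upper-quartile scaling, −0.0354 with the GC correction, and −0.0437 and −0.0318 without control library 3 or STING library 3, within a range of −0.0437 to 0.0509. HMOX1 was at −0.0539 without STING library 1, within a range of −0.0539 to 0.105. All the reversed values had adjusted p of at least 0.675. Summing GCLC or SLC7A11 with their tested overlapping models moved the log2 ratio by less than the spread between replicates.

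The replicate numbers were tried as a block, although no label says that they mark a shared culture or day. Deviations of same-numbered libraries correlated at 0.160, 0.102 and 0.0226 over 14894 genes. Libraries 1 and 2 of each group correlated best with their own number, and libraries 3 did not. These correlations do not settle whether the numbers mark pairs. The main test did not treat them as pairs because no label names a pairing. With the replicate block 120 genes changed, 1 of the 9 (TKT, adjusted p = 0.044) and 1 of the lists. With the block and the GC correction together 53 genes changed, 0 of the 9 (5 at an unadjusted edgeR p under 0.05, adjusted p of TKT 0.0698) and 0 of the lists, with SRXN1 at 0.0162 and GCLC at −0.0347.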

Other observations

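Of the 37 tested genes that the deposited annotation places in ferroptosis, the iron-dependent death by lipid peroxidation that SLC7A11, GCLC, GCLM and HMOX1 also belong to in it, 0 rose and 4 fell by edgeR, against 0.89% of all tested genes called lower and 2.76% of those with at least 50 CPM. The term's median log2 fold change was −0.07. The term was considered after the values were seen. Besides FTH1 and GPX4, the fallen genes were LPCAT3, which inserts polyunsaturated fatty acids into phospholipids (19.8 ± 2.34 to 14.4 ± 0.561 CPM, SD, n = 3, edgeR adjusted p = 0.0212), and STEAP3, an endosomal iron reductase (48.7 ± 1.51 to 38.0 ± 3.12 CPM, edgeR adjusted p = 0.0119). Before adjustment, edgeR gave 8 of the 37 a p under 0.05. Among all tested genes 14.4% had such a value, and among those with at least 50 CPM 26.6% did. None of the 4 members of the 9 genes in this term was among the called genes.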
